A study of Homo sapiens with 6 samples.

Results

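The endoplasmic reticulum (ER) chaperones, folding enzymes and quality control genes of OVSAYO, a human ovarian clear cell carcinoma line, were followed after inhibition of the miR-30 family. The set holds 36 listed genes, among them HSPA5, which is a reported miR-30 target. Its members were taken by symbol, as every array probe whose only platform gene symbol is a listed gene. This gave 48 of the 48803 probes, for 35 of the 36 genes, and HERPUD1 was not analysed here.

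Cells were transfected in 6-well plates and total RNA was measured 48 hours later on single-colour Illumina expression arrays, 1 per culture. The 3 inhibitor cultures received 44 nM of a miR-30a and 22 nM of a miR-30d hairpin inhibitor together. The 3 control cultures received 66 nM of a negative control hairpin inhibitor modelled on worm microRNAs. All 6 are of a single cell line, all were exposed to the transfection lipid, and the labels call them biological replicates without saying what separated them. A p-value here therefore measures the spread among these cultures, which may be technical. The series text speaks of mimics, and the sample labels, which speak of inhibitors, were followed.

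Proteins that enter the secretory pathway fold in the ER lumen with the help of chaperones and of enzymes that form disulfide bonds. Unfolded protein activates 3 sensors, the nuclease IRE1 (gene ERN1), the membrane-bound transcription factor ATF6 and the kinase PERK, which together raise chaperone synthesis, slow translation and raise the capacity of ER-associated degradation, the route by which misfolded proteins return to the cytosol for destruction. MicroRNAs of the miR-30 family lower the abundance or the translation of mRNAs that pair with their seed, so that an inhibitor would raise a direct target. Neither the mature microRNAs nor the proteins were measured on these arrays.

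The mature 5p strand of miR-30a, a target of the inhibitors, is shown with those of its relatives miR-30c and miR-30e to give the family seed. That of miR-30d is not shown here. The capitals mark bases 2 to 8, the seed, which these 4 entries of the RefSeq table of GRCh38.p14 share. The miR-30a-5p strand lies at chr6:71403595-71403616 (minus strand) and miR-30e-5p at chr1:40754371-40754392 (plus strand). The miR-30c-5p strand comes from chr1:40757300-40757322 (plus strand) and chr6:71377003-71377025 (minus strand).
hsa-miR-30a-5p: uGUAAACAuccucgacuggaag
hsa-miR-30c-5p: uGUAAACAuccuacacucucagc
hsa-miR-30e-5p: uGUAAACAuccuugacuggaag

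Many ER chaperone genes are switched on through the ER stress response element (ERSE), to which ATF6 and the transcription factors NF-Y and XBP1 are known to bind. Promoter windows running from 250 bases before to 50 bases after a gene's start were found in RefSeq for 33 of the 36 members and searched on both strands for CCAAT, 9 free bases and CCACG. The ERSE was present in 7 of the 33 members (21.2%), against 25 of the 27305 genes in the table (0.0916%). The letters are printed to show what these members share, with the ERSE in capitals, each read along the strand of its gene in GRCh38.p14. In CALR, in CRELD2 and in the second HSP90B1 element it lies on the opposite strand and therefore reads CGTGG, 9 free bases and ATTGG. The HSPA5 stretch runs up to the start of the gene and holds a TATA-like run. In the window of another CANX start an ERSE reaches past that start and is not printed. Whether it is the printed CANX element seen from another start was not checked.
HSPA5, chr9:125241344-125241419, minus strand: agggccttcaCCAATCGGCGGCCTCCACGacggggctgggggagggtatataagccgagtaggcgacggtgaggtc
HSP90B1, chr12:103930213-103930237, plus strand: tgaCCAATCGGAAGGAGCCACGctt
HSP90B1, chr12:103930318-103930342, plus strand: gtgCGTGGTGCGGCGCGATTGGtgg
CALR, chr19:12938381-12938405, plus strand: acgCGTGGTCGACCATCATTGGtcg
CANX, chr5:179698775-179698799, plus strand: cggCCAATCTTCACACTCCACGaag
CRELD2, chr22:49918551-49918575, plus strand: tctCGTGGCGAACTCGGATTGGgcc
PDIA6, chr2:10812850-10812874, minus strand: ggaCCAATGAGCCGCAGCCACGgct
XBP1, chr22:28800600-28800624, minus strand: tggCCAATCGCGGAGGGCCACGacc

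A shorter related element, ATTGG, 1 free base and CCACG, was present in HERPUD1, HYOU1 and SDF2L1, 3 of 33 members against 0.0696% of genes. The XBP1 element TGACGTGG, searched likewise on both strands, was present in DNAJC10 and HYOU1, against 0.927% of genes. A match is a run of letters and not a measured site, and a window without one says only that these letters are not in it.

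Between 43.4% and 45.2% of all probes were detected on each array, and the mean raw signal ran from 222.6 to 258.5. All 7 epithelial markers and all 5 measured clear cell markers (AMACR, ANXA4, GLRX, NAPSA and PAX8) were detected on all 6 arrays. Of the other cell types, PTPRC, LYZ and CSF1R of leukocytes, COL3A1 and PDGFRB of fibroblasts and VWF of endothelium were detected on no array, while CD14, DCN, LUM and PECAM1 of the same lists were detected on all 6. PECAM1 was below the controls on all inhibitor arrays, with a log2 fold change of −0.32 ± 0.09 (SE, limma adjusted p 0.440). Linear signals were summed over the markers of each list with a probe detected on at least 3 arrays. The leukocyte value was that of CD14 alone, at 36.6 to 38.8 on inhibitor arrays and 41.1 to 44.8 on control arrays. The endothelial sum held only PECAM1 and TEK, at 13.6 to 18.4 and 19.5 to 24.6. That of the clear cell markers was 1636.4 to 1695.3 and 1697.1 to 1726.9. The ranges of these lists did not overlap between the groups, and their part in the results was not tested. The clear cell markers did not share a direction. By the brightest probe, log2 fold changes were 0.31 for AMACR and 0.11 for ANXA4, against −0.44 for GLRX, −0.06 for NAPSA and −0.03 for PAX8. PAX8, the brightest of these markers, weighed most in their sum. The fibroblast sum, of DCN and LUM only, was 31.8 to 46.2 on inhibitor arrays and 30.0 to 39.9 on control arrays. That of the epithelial markers was 30186.1 to 33724.1 and 30094.3 to 33494.7, and both overlapped. Some arrays stood apart from their groups. On the first principal component, which held 42.1% of the variance, the scores were 17.5, 13.2 and −9.11 for inhibitor replicates 1 to 3, against −4.12, −15.7 and −1.68 for control replicates 1 to 3. Inhibitor replicate 3 thus lay among the controls. Values without that array and control replicate 2, a choice made after the data were seen, are given beside each member whose values are listed array by array.

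With the miR-30 inhibitors the shifts of the ER folding genes were small, from −0.26 to 0.17 on the log2 scale, and none passed the test. A probe was tested where its detection score exceeded 0.95 on at least 3 arrays, which held for 45 of the 48 member probes and for 33 of the 36 genes. PDIA3, a disulfide isomerase, was detected on 1 of 3 inhibitor and 1 of 3 control arrays, and ERN1, the IRE1 sensor, on none. Each was read by 1 probe, and a probe without signal does not show that its mRNA is absent. A further probe of EDEM3 was also detected on no array, while the other probes of EDEM3 were detected on all 6. No member probe passed an adjusted p of 0.05 with limma, which was also so for all 21928 probes tested (0%). At an unadjusted p under 0.05 with limma, 1 member probe was higher and 3 were lower, 8.89% of the 45, against 4.83% higher, 5.19% lower and 10.0% in all of the probes tested. A higher mean was found in 25 of the 45, against 51.7% of all probes. The groups did not overlap in 5 member probes that were higher and 4 that were lower, against 8.40% and 7.12% of all probes. Represented by its brightest probe, 17 of the 33 genes had a higher and 16 a lower mean with the inhibitors, against 52.1% of all genes with a higher mean. Of these 33, 0 were higher and 3 lower at an unadjusted p under 0.05, against 4.79% and 5.33% of all genes. The median log2 fold change was 0.00 over the members and 0.01 over the 12183 genes measured. In these lysates a change in every cell and a change in the share of cells with a transcript cannot be told apart.

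The intervals set how far the data reach. The 95% interval of the fold change lay within 1.2-fold in both directions for 16 of the 33 genes (48.5%), against 40.8% of all genes. It lay within 1.5-fold for all 33, against 98.7% of all genes. Both bounds are descriptive, and the narrower was set after the values were seen. Inhibitor and control arrays were fully separated in 7 genes (21.2%), against 16.3% of all genes. They lay above the controls in DNAJB11, XBP1 and SELENOS, and below them in CALR, ATF6B, EDEM1 and SEC61B, against 8.92% of all genes above and 7.40% below.

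**Figure D1:**
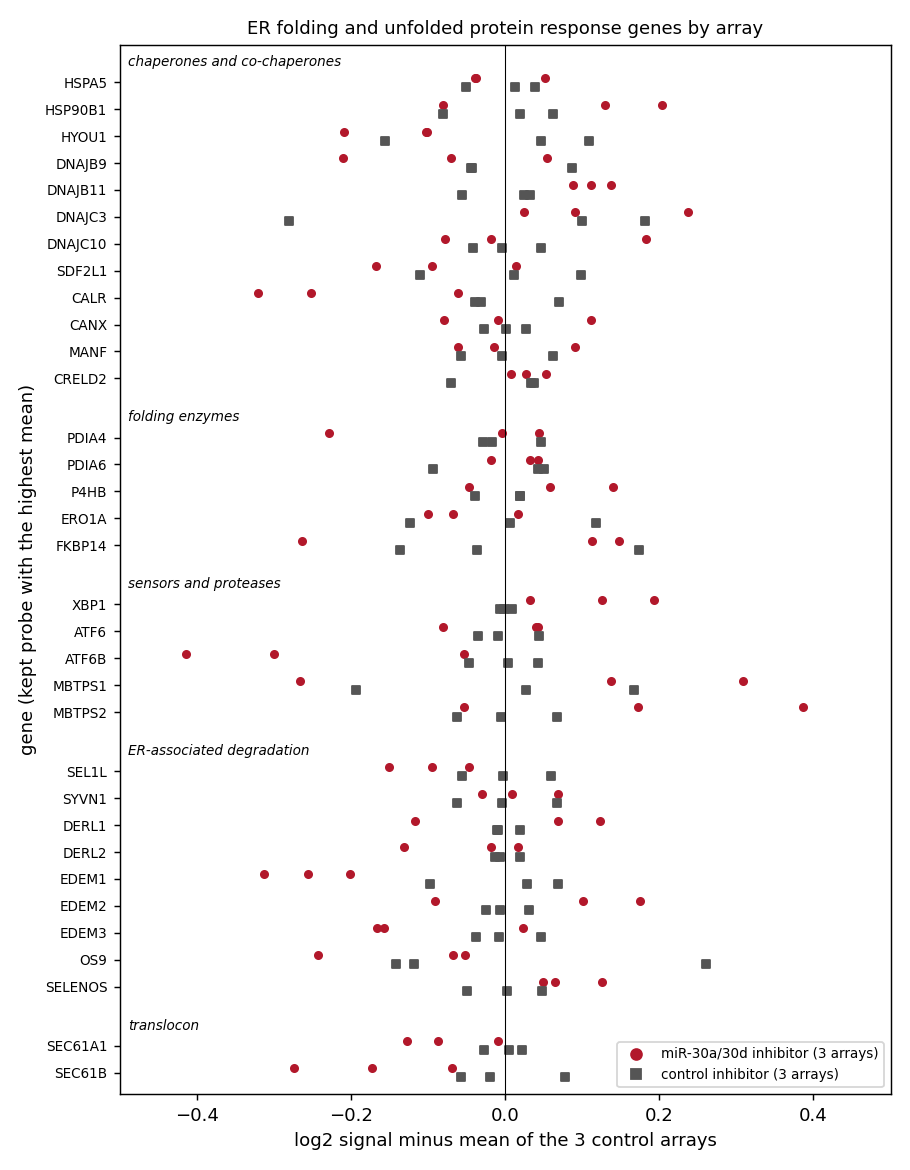
Log2 signal of 33 member genes on each of the 6 arrays, as the difference from the mean of the 3 control arrays; circles are the inhibitor arrays, squares the control arrays, and genes are grouped by role. Circles lie to the left of all squares in CALR, ATF6B, EDEM1 and SEC61B, to the right in DNAJB11, XBP1 and SELENOS, and the groups overlap elsewhere.

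HSPA5, the ER member of the HSP70 family (BiP) and the central chaperone of the lumen, was measured by 1 probe. Its log2 signal was 9.99, 9.90 and 9.90 on the inhibitor arrays, against 9.95, 9.98 and 9.89 on the control arrays. The groups overlapped, with inhibitor replicate 1 and control replicate 2 the highest of each. The means were 9.93 ± 0.05 with the inhibitors and 9.94 ± 0.05 in the controls (SD, n = 3 each). The log2 fold change was −0.01 ± 0.07 (SE, limma adjusted p 0.976). Its 95% interval ran from −0.17 to 0.16, which is 0.887-fold to 1.11-fold. With quantile normalization, a rise of HSPA5 mRNA by 1.2-fold would thus lie outside the interval of this probe. A shift within that interval or one in the protein alone would not be seen. No interval is given for median centring, where HSPA5 had a log2 fold change of 0.14, or 0.02 relative to the median of all genes. Without inhibitor replicate 3 and control replicate 2 its log2 fold change was 0.03.

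The other lumenal HSP70 and HSP90 machinery did not pass the threshold either. HSP90B1 (GRP94), the ER member of the HSP90 family, read 14.22, 14.15 and 13.94 on the inhibitor arrays, against 14.04, 13.94 and 14.08 on the controls. Inhibitor replicate 3 and control replicate 2 held the same lowest value, and the log2 fold change was 0.08 ± 0.09 (SE, limma adjusted p 0.767), or 0.13 without both of those arrays. HYOU1, a large chaperone that exchanges the nucleotide of HSPA5, had log2 fold changes of −0.14 and −0.04 in its probes.

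The J-domain co-chaperones pass substrates to HSPA5 and stimulate its ATPase. DNAJB11, which binds nascent chains in the lumen, read 11.30, 11.25 and 11.27 on the inhibitor arrays, against 11.10, 11.19 and 11.18 on the controls. All 3 inhibitor values lay above the controls, by a log2 fold change of 0.11 ± 0.07 (SE, limma adjusted p 0.617), or 0.13 without the 2 arrays that stood apart. DNAJC3 had 0.12 with its lowest value on a control array, DNAJB9, which also restrains IRE1, had −0.08, and the reductase DNAJC10 had 0.03. SDF2L1, a partner of DNAJB11, had −0.08, so that these functionally linked members did not share a direction.

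CALR and CANX are the lectin chaperones that hold glycoproteins until they have folded. CALR (calreticulin) read 9.01, 9.20 and 8.94 on the inhibitor arrays, against 9.33, 9.23 and 9.23 on the controls. Every inhibitor value lay below every control value, with replicate 2 only 0.02 below the lowest control. The log2 fold change was −0.21 ± 0.09 (SE, limma adjusted p 0.478), the lowest among the chaperones, and −0.17 without the 2 arrays that stood apart. CANX (calnexin), its membrane-bound counterpart, had 0.01 and −0.05 in its probes. The secreted stress-inducible proteins MANF and CRELD2 had 0.01 and 0.03. Over the 12 chaperones and co-chaperones, 7 had a higher and 5 a lower mean with the inhibitors, with a median log2 fold change of 0.01.

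Among the folding enzymes, the 5 measured genes had log2 fold changes from −0.06 to 0.05, and the 95% interval lay within 1.2-fold for 4 of the 5. The disulfide isomerases P4HB, PDIA6 and PDIA4 had 0.05, 0.02 and −0.06. ERO1A, the oxidase that recharges them, had −0.05. FKBP14, a prolyl isomerase that acts on collagens, had −0.00 with wide scatter, at 10.06, 9.65 and 10.03 on the inhibitor arrays, against 9.78, 9.88 and 10.09 on the controls. Without the 2 arrays that stood apart it had −0.08. Its other probe had 0.01 and read between 8.42 and 8.56 on all 6 arrays. The low value of inhibitor replicate 2 was therefore not seen by that probe.

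**Figure D2:**
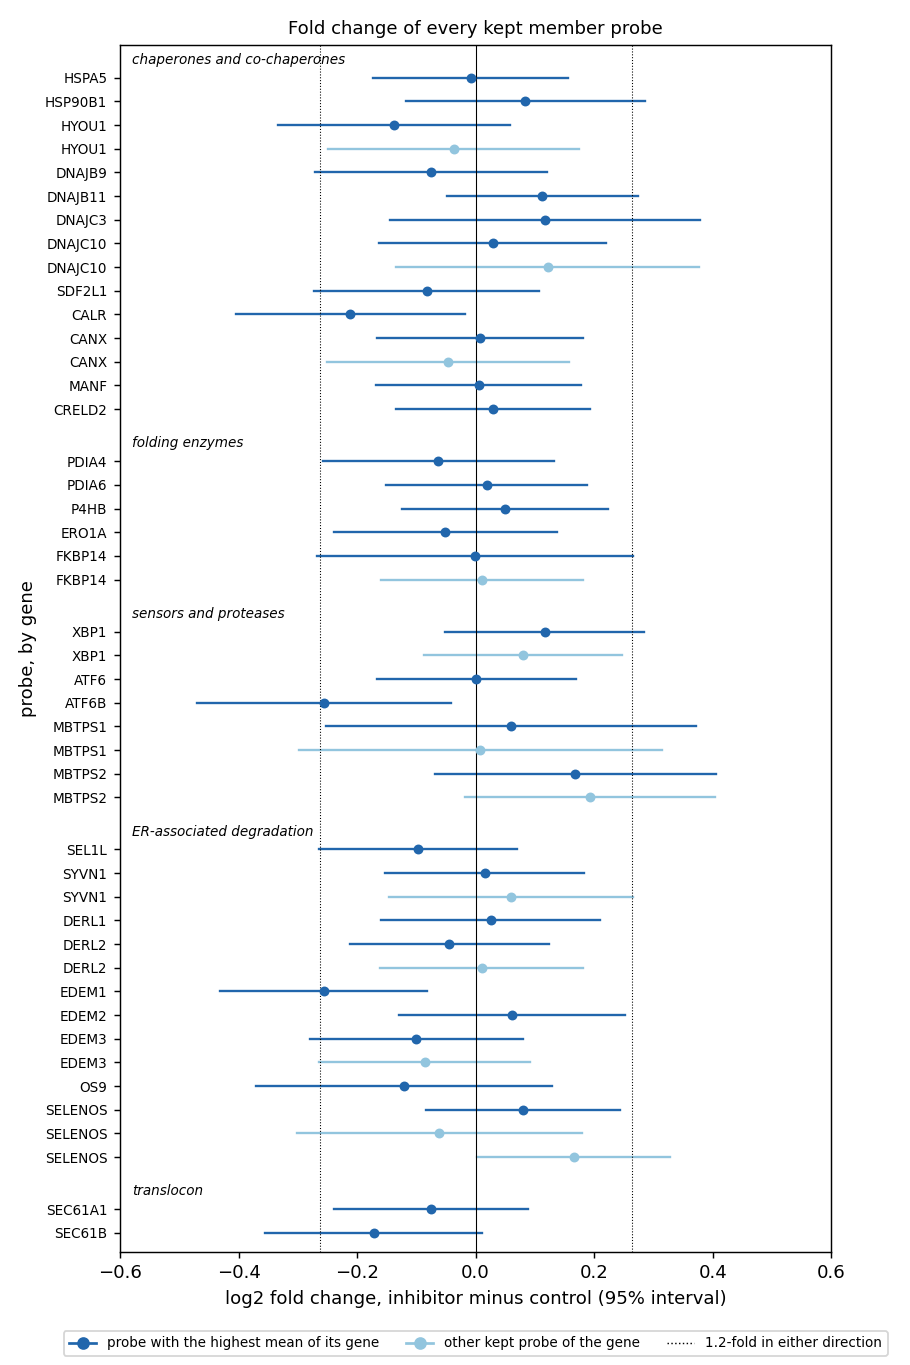
Log2 fold change, inhibitor minus control, of each of the 45 tested member probes with its 95% interval; dark points are the brightest probe of a gene, pale points its other tested probes, and dotted lines mark 1.2-fold. Intervals of CALR, ATF6B, EDEM1 and a further SELENOS probe do not reach 0, and no probe passed after adjustment over all 21928 probes.

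The sensors and proteases ran from ATF6B at −0.26 to MBTPS2 at 0.17. XBP1, whose mRNA is spliced by IRE1 into a strong activator of chaperone and degradation genes, was read by a pair of probes. The brighter read 10.98, 10.91 and 10.82 on the inhibitor arrays, against 10.79, 10.78 and 10.78 on the controls. The other read 10.73, 10.64 and 10.58 on the inhibitor arrays, against 10.57, 10.56 and 10.58 on the controls. The inhibitor arrays lay above the controls in both probes and kept the same order, with replicate 1 highest and replicate 3 nearest to the controls, in the dimmer probe by under 0.01. The log2 fold changes were 0.12 ± 0.08 and 0.08 ± 0.08 (SE, limma adjusted p 0.618 and 0.724). The brighter probe had 0.16 without the 2 arrays that stood apart. Whether these probes tell the spliced from the unspliced mRNA was not tested.

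ATF6, the sensor that is cut in the Golgi to free a transcription factor, had a log2 fold change of 0.00 ± 0.08 (SE). ATF6B, its homologue, read 5.22, 5.33 and 5.58 on the inhibitor arrays, against 5.64, 5.68 and 5.59 on the controls. All inhibitor values lay below the controls, though inhibitor replicate 3 did so by only 0.01. The log2 fold change was −0.26 ± 0.10 (SE, limma adjusted p 0.462), and −0.34 without the 2 arrays that stood apart. Its size depended on the background correction: it was −0.16 with no correction, −0.14 with an offset of 50 and −0.12 in the authors' normalized values.

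The proteases that cut ATF6, MBTPS1 (site-1) and MBTPS2 (site-2), varied between cultures of the same group. MBTPS1 read 10.06, 9.89 and 9.49 on the inhibitor arrays, against 9.92, 9.56 and 9.78 on the controls. Its other probe read 7.33, 7.42 and 7.01, against 7.39, 6.94 and 7.40. In both probes the lowest inhibitor value was replicate 3 and the lowest control value replicate 2, the arrays that also stood apart on the first principal component, whose part in this was not tested. The log2 fold change of the brighter probe was 0.06 ± 0.14 (SE), or 0.13 without those 2 arrays, and it ran from −0.06 (without inhibitor replicate 1) to 0.22 (without inhibitor replicate 3) with 1 array left out.

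MBTPS2 read 8.09, 7.87 and 7.65 on the inhibitor arrays, against 7.70, 7.77 and 7.64 on the controls. The groups overlapped in this probe and in the other, which read 6.52, 6.37 and 6.18, against 6.12, 6.14 and 6.23. The log2 fold changes were 0.17 ± 0.11 and 0.19 ± 0.10 (SE, limma adjusted p 0.610 and 0.521). The log2 fold change of the brighter probe was 0.31 without the 2 arrays that stood apart (limma adjusted p 0.237) and 0.06 without inhibitor replicate 1. Over the 5 measured sensor genes, 4 had a higher and 1 a lower mean with the inhibitors, with a median of 0.06.

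**Figure D3:**
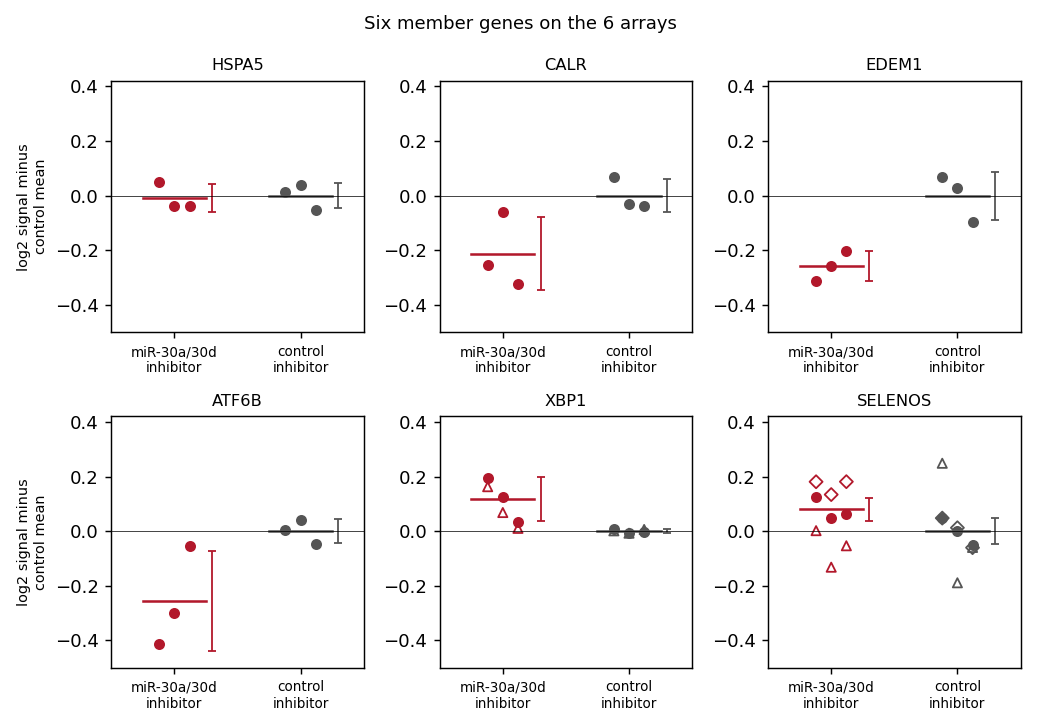
Log2 signal minus the control mean for HSPA5, CALR, EDEM1, ATF6B, XBP1 and SELENOS; filled circles are the brightest probe, open symbols the other tested probes, horizontal lines the mean and error bars the SD of the brightest probe (n = 3 each). HSPA5 overlaps between the groups, CALR, EDEM1 and ATF6B lie lower on the inhibitor arrays, and the XBP1 probes lie higher.

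Genes of ER-associated degradation were mixed. EDEM1, a mannosidase-like protein that marks misfolded glycoproteins for disposal, read 7.01, 7.06 and 7.12 on the inhibitor arrays, against 7.39, 7.35 and 7.22 on the controls. All inhibitor values lay below the controls, and the arrays of each group stayed close together. The standard error among the beads of this probe, 0.09 on the log2 scale, was the largest of the tested member probes. Before background correction the spread between arrays of a group was 0.06, below that error. The EDEM1 log2 fold change of −0.26 ± 0.08 (SE, limma adjusted p 0.440) lay beside that of ATF6B at the low end of the members. It had their lowest p, yet did not pass. It was −0.27 without the 2 arrays that stood apart. The related EDEM2 and EDEM3 had 0.06 and −0.10, so that the family did not share a direction.

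SELENOS, a selenoprotein of the ER membrane that recruits the ATPase VCP, was read by 3 tested probes. The brightest read 11.25, 11.17 and 11.19 on the inhibitor arrays, against 11.17, 11.13 and 11.07 on the controls, a log2 fold change of 0.08 ± 0.07 (SE, limma adjusted p 0.720), or 0.09 without the 2 arrays that stood apart. A further probe read 9.95, 9.90 and 9.95 on the inhibitor arrays, against 9.82, 9.78 and 9.71 on the controls. This probe gave 0.17 ± 0.07 (SE, limma adjusted p 0.492) and was the member probe counted as higher at an unadjusted p under 0.05, where 4.83% of all probes were. In both the inhibitor arrays lay above the controls, in the brightest probe by under 0.01 between inhibitor replicate 2 and control replicate 1, while the dimmest probe overlapped and had −0.06.

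The ubiquitin ligase SYVN1 and its partner SEL1L, which form the core of this pathway's channel, had log2 fold changes of 0.02 and −0.10. DERL1 and DERL2, membrane proteins of the same channel, had 0.03 and −0.04, and the lectin OS9 had −0.12. OS9 read 7.27 on control replicate 1 and between 6.76 and 6.95 on the other arrays. Without the 2 arrays that stood apart it had −0.13, and without control replicate 1 it had 0.01. Over the 9 measured degradation genes, 4 had a higher and 5 a lower mean with the inhibitors, with a median of −0.04. The medians of chaperones and of degradation genes are set side by side as descriptions, and their difference was not tested.

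The translocon carries nascent chains into the ER. SEC61B, a small subunit, read 10.26, 10.36 and 10.47 on the inhibitor arrays, against 10.52, 10.61 and 10.48 on the controls. The inhibitor arrays lay below the controls, with replicate 3 only 0.01 below, and the log2 fold change was −0.17 ± 0.08 (SE, limma adjusted p 0.516), or −0.19 without the 2 arrays that stood apart. The channel subunit SEC61A1 had −0.07 ± 0.07 (SE, limma adjusted p 0.739).

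The members with an ERSE in the promoter window had a log2 fold change from −0.21 to 0.12 with a median of 0.02, and 5 of the 7 had a higher mean with the inhibitors. The 24 tested members with a promoter window but no ERSE in it had a median of −0.05, and 11 had a higher mean. Of all genes, 52.1% had a higher mean, and the difference between these groups of members was not tested. Tested members for which no window was found are in neither group. CALR and XBP1, both with an ERSE, lay at the opposite ends of the first range. HSPA5, HSP90B1, CANX, CRELD2 and PDIA6, the remaining carriers, had between −0.01 and 0.08.

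Inhibitor replicate 3 gave the lowest value of its group in 17 of the 33 members (51.5%), against 39.1% of all genes, and replicate 1 the highest in 16 (48.5%), against 33.7% of all genes. Averaged over the members, inhibitor replicates 1, 2 and 3 lay at 0.02, −0.02 and −0.07 relative to the control mean, while control replicates 1 and 3 lay at 0.01 and −0.01. The highest inhibitor array was thus above, and the other inhibitor arrays below, every control.

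**Figure D4:**
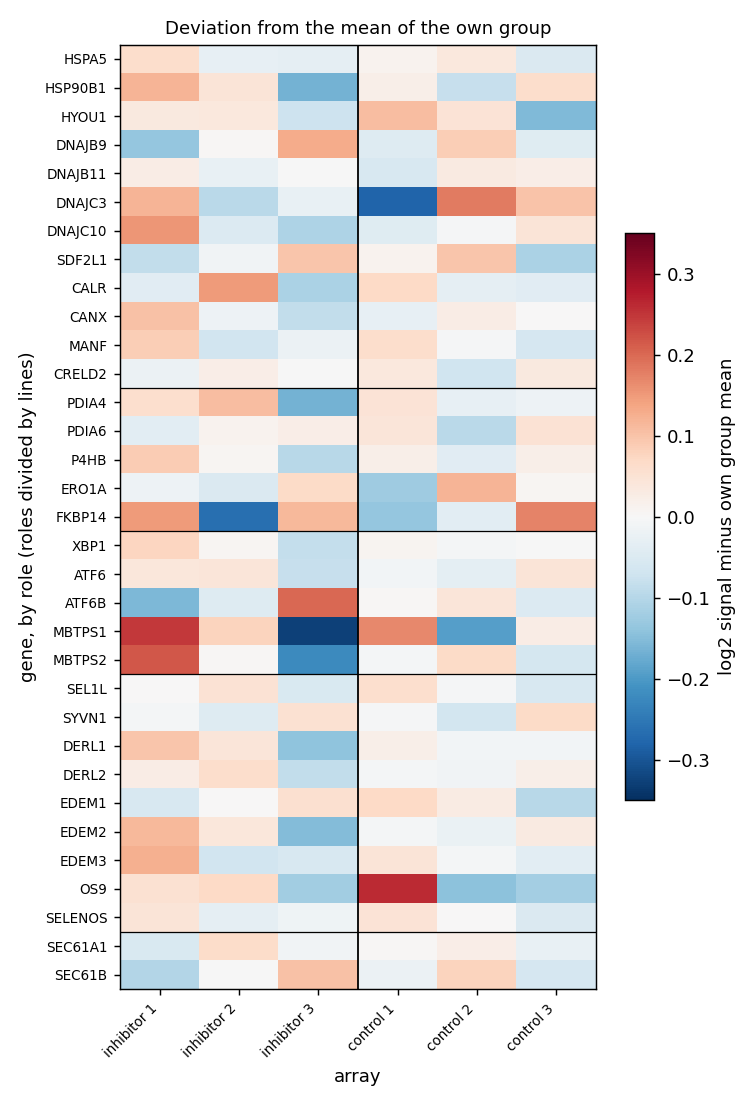
Deviation of each of 33 member genes on each array from the mean of its own group, on a log2 scale, with inhibitor arrays left and control arrays right. Inhibitor replicate 3 is low in MBTPS1 (−0.33) and MBTPS2 (−0.22) and high in ATF6B (0.20), and inhibitor replicate 1 is high in MBTPS1 (0.25).

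Of 11 members with several tested probes, the probes of 7 shared a sign of the fold change and those of 4 did not. In CANX, DERL2, FKBP14 and SELENOS, where the signs differed, the values ran from −0.06 to 0.17. The widest difference between probes was that of SELENOS.

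Genes of the same pathway outside the set had shifts of similar size, with a median absolute log2 fold change of 0.07 in both. Over all genes it was 0.08. Of 93 such genes in lists of related function, 80 were measured, and 48 had a higher and 32 a lower mean with the inhibitors. Of all genes, 52.1% had a higher mean, the share to set beside this count and those of the single lists. None passed the adjusted threshold with limma, and 6 were higher and 3 lower at an unadjusted p under 0.05 (11.2%), against 10.1% of all genes. Among the 78 detected on all 6 arrays, 5 were higher and 3 lower. The PERK arm, which slows translation and raises the transcription factor ATF4, had 6 of 7 genes with a higher mean. Its median was 0.10, and 0 of the 7 were at an unadjusted p under 0.05 with limma, against 10.1% of all genes. Its stress-relief phosphatase subunit PPP1R15A read 10.29, 10.37 and 10.30 on the inhibitor arrays, against 10.17, 10.21 and 10.14 on the controls, and had 0.15 ± 0.07 (SE, limma adjusted p 0.516). ATF4 had 0.16 ± 0.09 (SE, limma adjusted p 0.556), and its inhibitor replicate 3 had the same value as control replicates 1 and 2. The other tested ATF4 probes had −0.08 and 0.03.

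Further degradation genes held 6 of the 9 genes at the unadjusted threshold, 3 higher and 3 lower of 20 (30%). Of all genes, 4.79% were higher and 5.33% lower, 10.1% in either direction. This list was chosen with earlier results of these data known, so no conclusion is drawn from its share. AUP1, a lipid droplet protein that recruits ubiquitin-conjugating enzymes, read 8.82, 8.77 and 8.70 on the inhibitor arrays, against 8.46, 8.41 and 8.54 on the controls. Its log2 fold change was 0.29 ± 0.08 (SE, limma adjusted p 0.440), and that of its other probe was 0.09. The ligase MARCHF6 read 9.78, 9.99 and 9.97 on the inhibitor arrays, against 10.15, 10.30 and 10.15 on the controls, and had −0.28 ± 0.09 (SE, limma adjusted p 0.440). Its other tested probes had −0.13 and 0.05. The groups did not overlap in the brightest probe of either gene, and the 2 lay in opposite directions.

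The others, named because they complete the count, were split as well. The ATPase VCP, which pulls substrates out of the membrane, had −0.27, and BAG6, which keeps them soluble, had −0.28, with −0.11 in its other probe. UFD1, a cofactor of VCP, had 0.20, with −0.02 in its other probe, and TMUB1 had 0.22. The list as a whole had 7 of 20 genes with a higher mean, against 52.1% of all genes, and a median of −0.07.

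Among further folding enzymes, 16 of 25 genes had a higher mean, with a median of 0.03, and the J-domain protein DNAJC1 and the prolyl isomerase PPIC had 0.23 and 0.19, with 0.22 in the other probe of PPIC. DNAJC1 was detected on 3 inhibitor arrays and on 1 control array, so that it entered the test through the inhibitor arrays, and its value is given as a description. Translocation and glycosylation genes had 14 of 20 with a higher mean, against 52.1% of all genes, and a median of 0.07. SSR3, a subunit of the translocon-associated complex, read 5.65, 5.55 and 5.59 on the inhibitor arrays, against 5.29, 5.29 and 5.41 on the controls, with a log2 fold change of 0.26 ± 0.08 (SE, limma adjusted p 0.440). SSR2 of the same complex had 0.22 ± 0.11 in its brightest probe (SE, limma adjusted p 0.518), whereas its other probes had −0.34 ± 0.10 (SE, limma adjusted p 0.440), with all inhibitor arrays below the controls, and 0.04. SSR1 and SSR4, the remaining subunits, both had −0.07, with all inhibitor arrays below the controls, and are named after their values were seen. Of the regulators, NFYB, a subunit of the NF-Y factor that binds the ERSE, had −0.16, and CREB3, an ATF6-like membrane-bound factor, had −0.15.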

How the data were processed

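The deposited array tables give a mean bead intensity and a detection score for each of 48803 probes, the score a fraction from 0 to 1 that rises with signal. Per the submitters' processing notes BeadStudio made them, with a version not given in the sources used here, and the values are neither background-subtracted nor normalized. A deposited series table holds a normalized intensity per probe, matched by rank on all 6 arrays, which placed all 48803 probes. Symbols came from the platform annotation (28098 probes with 1 symbol, 13 with several, 20692 with none here). No genome build is named in the files.

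Signals were corrected and quantile-normalized with neqc (offset 16, limma 3.58.1, R 4.3.3), and 21928 probes whose detection score passed 0.95 on 3 or more arrays went into lmFit and eBayes. The fit was two-sided and had no block for replicate numbers, with Benjamini-Hochberg adjustment over all of them. The kept probe with the highest mean stood for a gene. Every member could be named. In each list of related genes the 2 with the lowest p were named, and the remaining genes of the degradation list at an unadjusted p under 0.05 were added after their values were seen. Members and lists were chosen with earlier results of these data known. Same-numbered replicates did not deviate together (correlations of 0.09, −0.26 and −0.21) and were not treated as pairs. Arrays hold no read depth, so precision is limited by their number. In simulated data 200 of 21928 probes were changed together, 50 at each fold. Of these, 8% passed at 1.2-fold, 64% at 1.5-fold, 98% at 2-fold and 100% at 4-fold, with 5 false calls. The larger changes ease the adjustment for the smaller ones, and no probe passed in the real data. The shares at 1.2-fold and 1.5-fold may therefore be too high for these data. Figures were drawn with matplotlib 3.10.9.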

Additional observations from a re-analysis of the deposited data

How the results depend on the processing

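Leaving out inhibitor replicate 3 with control replicate 2 was chosen after the data were seen. Under each of the 17 alternatives run, 0 member probes and 0 of all probes passed the adjusted threshold with limma. With 1 array left out, probes at an unadjusted p under 0.05 ran from 1310 (without inhibitor replicate 1, and 1426 without replicate 2) to 4251 (without inhibitor replicate 3), against 2199. Member probes among them ran from 0 to 3 higher, against 1, and from 1 to 3 lower, against 3. They were 3 higher without inhibitor replicate 3 and 0 higher without any other single array, and 1 lower without inhibitor replicate 1, control replicate 1 or control replicate 2. Role medians then ran from −0.038 to 0.022 for chaperones, from −0.042 to 0.044 for folding enzymes, from −0.019 to 0.159 for sensors, from −0.067 to 0.0097 for degradation and from −0.146 to −0.085 for the translocon. Without control replicate 2 and inhibitor replicate 3 together, all probes at the unadjusted threshold numbered 3405 and member probes 2 higher and 2 lower. With array weights they were 3576, 3 and 3, and without a detection filter 4105, 2 and 4. The authors' normalized values gave 2 member probes higher and 5 lower. The replicate block gave 1714, 0 higher and 2 lower, and changed no call.

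With median centring the median of all genes was 0.12. This gave 4347 probes, with 7 member probes higher and 0 lower, and medians of 0.159, 0.144, 0.208, 0.105 and 0.014 for chaperones, folding enzymes, sensors, degradation and translocon. Relative to the median of all genes these were 0.042, 0.027, 0.091, −0.013 and −0.103. Under it HSPA5 had 0.137, HYOU1 0.012, DNAJB9 0.064, SDF2L1 0.073, PDIA4 0.084, ERO1A 0.092, FKBP14 0.144, SEL1L 0.018, DERL2 0.105, EDEM3 0.025, OS9 0.013 and SEC61A1 0.042. Relative to all genes HSPA5 had 0.02, and CALR, ATF6B and EDEM1 had −0.18, −0.29 and −0.24. Further sign changes gave MANF −0.011 and SYVN1 −0.012 with array weights, and CANX −0.020 and FKBP14 0.0048 with the mean of probes. Without the 2 arrays that stood apart HSPA5 had 0.026, CRELD2 −0.0052, PDIA4 0.0052, PDIA6 −0.039 and SYVN1 −0.043. With 1 array or those 2 left out, HSPA5 ran from −0.039 to 0.026, DNAJC3 from −0.023 to 0.221, DNAJC10 from −0.048 to 0.082, CANX from −0.045 to 0.064, MANF from −0.038 to 0.038, CRELD2 from −0.0060 to 0.048, PDIA4 from −0.117 to 0.020, PDIA6 from −0.039 to 0.044, ERO1A from −0.113 to 0.0080, FKBP14 from −0.077 to 0.130, ATF6 from −0.020 to 0.042, MBTPS1 from −0.065 to 0.223, SYVN1 from −0.043 to 0.049, DERL1 from −0.024 to 0.096 and OS9 from −0.192 to 0.0097. Of the 33 genes, 15 changed sign under an alternative other than median centring, 7 under median centring alone, which moved all genes, and 11 under none. The chip could not be used as a block, since the files name none. Causes were not tested.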
